A study of Mus musculus with 16 samples.

Results

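The 9 genes described here bind, carry, make or break down retinoids, or respond to them, and were taken by symbol from a table of 32078 genes: Stra6, Rbp4, Crabp1, Crabp2, Dhrs9, Aldh1a3, Aox4, Cyp26b1 and Rarg. All 9 passed the filter on low values. RNA of whole skin was sequenced from 7-week-old mice whose strain, sex and genotype are not given in the sources used here. The groups were SDS with Topsym at days 0, 1, 3 and 5 and SDS without Topsym at days 0, 1, 3 and 5, each of 2 libraries, 16 in all, and the groups with and without Topsym are called the arms. Values are normalised reads, which the authors made by dividing read counts by a size factor per library. SDS is sodium dodecyl sulfate, an irritant detergent, and Topsym is, as background knowledge that the labels do not give, a brand of the potent topical glucocorticoid fluocinonide. All samples are labelled with 4 days of topical treatment, although titles reach day 5. All groups carry SDS in their titles, so no group at a later day went without it, and the labels do not say when either agent was first applied or what the day 0 libraries with Topsym had received. Differences from day 0 therefore hold SDS, time and the animals or tissue sampled together, and these cannot be told apart.

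Retinol (vitamin A) travels in blood bound to the carrier Rbp4, and Stra6 is a cell-surface receptor that takes retinol from it. Inside the cell retinol is oxidised to retinaldehyde and then to retinoic acid, which the cytosolic proteins Crabp1 and Crabp2 bind. Retinoic acid acts through nuclear receptors, of which Rarg is the main retinoic acid receptor of epidermis, and Cyp26 enzymes break it down. In skin, retinoids are known to shape keratinocyte differentiation, sebaceous glands and hair follicles.

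The genes were selected on their function together with values of these data, chosen by the falls of 3 of them at day 1 of SDS alone. In SDS without Topsym at day 1 against day 0, Crabp1, Stra6 and Aox4 held ranks 4, 7 and 9 by size of fall among 12600 genes with a mean of at least 100 normalised reads. Comparisons that use the libraries of SDS alone at day 0 or day 1 are therefore given as values with no test. The other 8 comparisons were tested with limma over 19189 genes, on log2(normalised reads + 1), and each log2 difference is given with its standard error (SE) and its Benjamini-Hochberg adjusted p, with a threshold of 0.05. The labels do not state whether the libraries within a group come from different animals, so a p-value here covers the spread between libraries, which may be technical.

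The libraries held 15199656 to 32066246 recovered reads, of which the 9 genes took 0.0715 to 0.132%. At day 5, 19885 to 20774 genes were detected, against 22875 to 23740 at the other days. Markers of basal keratinocytes (7 genes such as Krt5 and Krt14) and of suprabasal keratinocytes (9 genes such as Krt1 and Krt10) were all above 0 in every group, which fits the label of skin. The summed suprabasal level was 1738559 to 1741993 normalised reads at day 5 with Topsym and 1116518 to 1179441 at day 5 without it, and 535473 or less in all groups at days 0, 1 and 3. The 8 dermal fibroblast markers summed to 8868 to 8955 at day 5 with Topsym and 16772 to 16923 at day 5 without it, against 420555 to 427884 and 302931 to 311843 at day 0. Skeletal muscle genes, from tissue below the skin, ranged over groups between 71881 and 422994. In whole skin, fewer cells of a type and less RNA per cell cannot be told apart, and the part of tissue make-up in the results below was not tested.

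**Figure D1:**
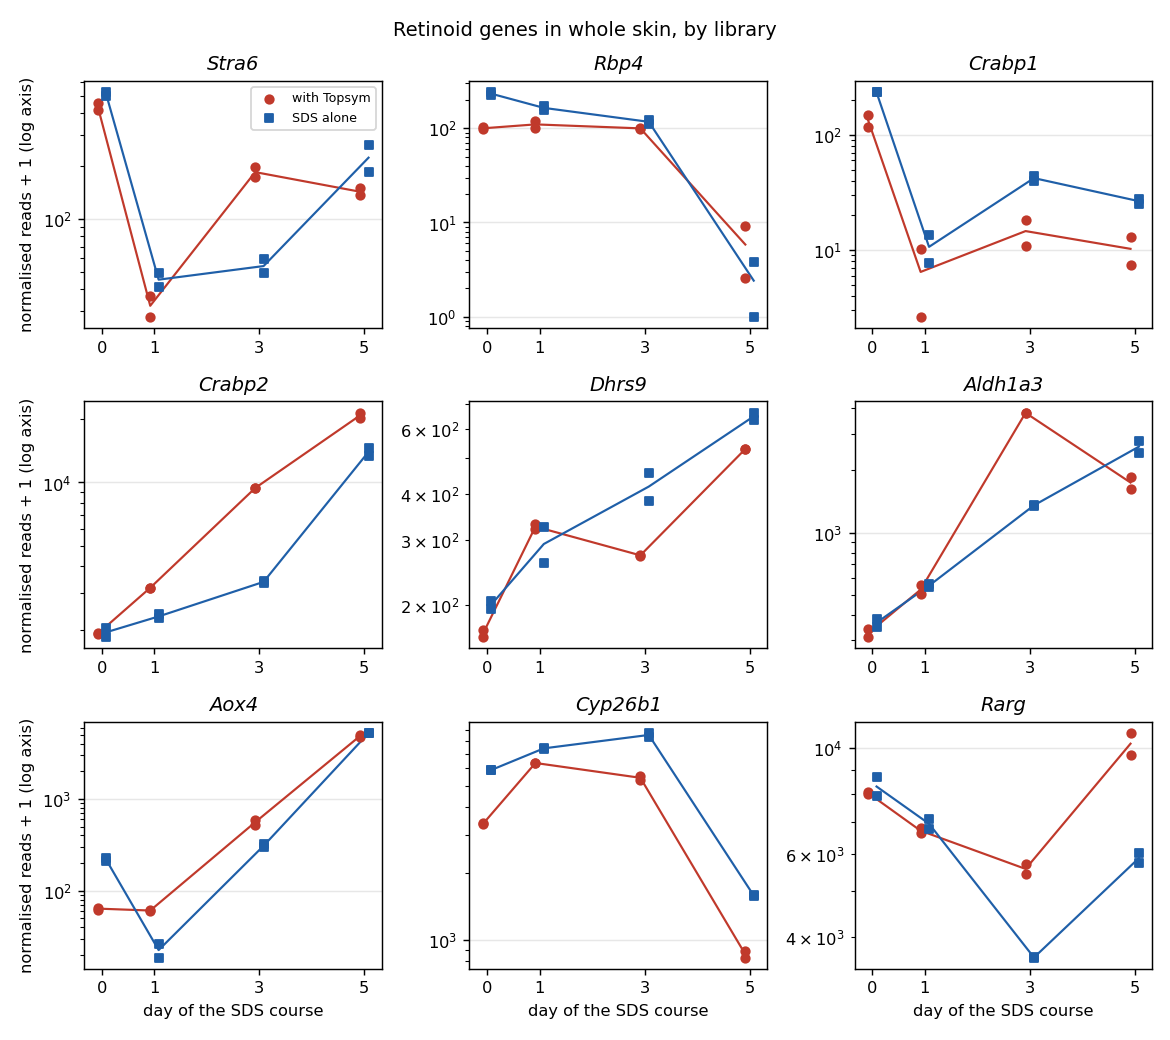
Normalised reads + 1 (log axis) of the 9 genes by day, with 1 point per library and lines through the means of 2 libraries, for SDS with Topsym (red) and SDS alone (blue). Crabp2 reached 20813 with Topsym and 13967 without it at day 5, while Rbp4 stood at 4.83 and 1.42.

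Of the genes of retinol uptake and transport, the receptor Stra6 had its lowest mean at day 1 in both arms. With Topsym, Stra6 had 454 and 419 normalised reads at day 0, 27 and 35.6 at day 1, 172 and 197 at day 3, and 149 and 136 at day 5. With SDS alone, Stra6 had 499 and 526 at day 0, 48.6 and 40.3 at day 1, 48.3 and 58.3 at day 3, and 262 and 184 at day 5. Within SDS alone, the libraries of days 1 and 3 overlapped. The arms did not overlap at any day, and at day 3 only the libraries with Topsym were back above 100. In the Topsym arm Stra6 fell by 3.77 on the log2 scale at day 1 against day 0 (SE 0.22, limma adjusted p = 5.44e-10), which is a 14-fold lower mean. At day 3 the Topsym libraries were 3.46-fold higher than those of SDS alone (log2 difference 1.78, SE 0.22, limma adjusted p = 3.8e-06), and at day 5 they were lower (log2 difference -0.62, SE 0.22, limma adjusted p = 0.0262). The call at day 5 was lost when only the libraries compared were fitted (adjusted p = 0.168) or when SDS_D5 replicate 1 (log2 difference -0.37, adjusted p = 0.231) or SDS_D5+Topsym replicate 2 (-0.55, adjusted p = 0.0934) was left out. Stra6 spans 58063788 to 58153996 on the plus strand of chromosome 9 (GRCm38, GENCODE M21, identifier ENSMUSG00000032327).

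Rbp4, which liver and fat release, was close to 0 at day 5 in both arms. With Topsym, Rbp4 had 101 and 96.7 normalised reads at day 0, 99.8 and 118 at day 1, 98.2 and 99.2 at day 3, and 8.07 and 1.6 at day 5. With SDS alone, Rbp4 had 223 and 240 at day 0, 173 and 154 at day 1, 122 and 110 at day 3, and 0 and 2.83 at day 5. The levels with Topsym at days 0, 1 and 3 lay within 96.7 to 118, with day 0 overlapping both other days and day 1 just above day 3, while those of SDS alone stood apart at each day. At day 5 against day 3 Rbp4 fell by 4.36 with Topsym (SE 0.55, limma adjusted p = 3e-06), and it fell by 5.90 with SDS alone (SE 0.55, limma adjusted p = 7.14e-08). Day 5 of SDS alone rests on 2 reads against 259 reads at day 3, a ratio of 0.0122 with an exact 95% counting interval of 0.00147 to 0.0446, which covers counting error only and takes each read as a separate molecule. The arms did not pass the test at day 3 (log2 difference -0.22, limma adjusted p = 0.786) or at day 5 (1.31, adjusted p = 0.0614). With 5 reads against 2 reads at day 5 the ratio was 3.14 (0.514 to 33), so a difference was not detectable at this depth by counting, although the fit passed the threshold without SDS_D5 replicate 2 (2.28, adjusted p = 0.00204) or without SDS_D5+Topsym replicate 2 (2.21, adjusted p = 0.00269). The 8 adipocyte markers were also lower at day 5 than at day 3: they summed to 5336 to 5405 at day 5 with Topsym, where Lep was at 0, and to 3422 to 3625 at day 5 with SDS alone, against 36348 to 36895 and 53874 to 56280 at day 3. They did not follow Rbp4 before that, since at day 0 they summed to 10598 to 10765 with Topsym and 20601 to 21421 with SDS alone, below day 3, where Rbp4 was about level with day 0 in the Topsym arm and lower than at day 0 with SDS alone. Their part in the Rbp4 result was not tested. Rbp4 (ENSMUSG00000024990) lies on the minus strand of chromosome 19 from 38116629 to 38125281.

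Against day 0, the genes of the intracellular retinoic acid binding proteins moved in opposite directions in both arms. In skin Crabp1 is known from dermal cells, among others, and Crabp2, which hands retinoic acid to nuclear receptors, from differentiating keratinocytes. With Topsym, Crabp1 had 116 and 149 normalised reads at day 0, 1.64 and 9.28 at day 1, 9.82 and 17.4 at day 3, and 12.1 and 6.39 at day 5. With SDS alone, Crabp1 had 232 and 233 at day 0, 12.6 and 6.72 at day 1, 43.3 and 38.9 at day 3, and 27.0 and 24.1 at day 5. Every library at days 1, 3 and 5 lay below every day 0 library, and the 2 arms overlapped only at day 1. In the Topsym arm Crabp1 fell by 4.67 on the log2 scale at day 1 (SE 0.56, limma adjusted p = 4.26e-06), fell by 3.23 at day 3 (adjusted p = 0.000115) and fell by 3.75 at day 5 (adjusted p = 1.63e-05). The dermal fibroblast markers summed to 223552 to 223952 at day 1 with Topsym against 420555 to 427884 at day 0 with Topsym, and the 8 dermal papilla markers to 446 to 449 against 570 to 585. Of these 8, 2 passed the test as lower and 6 did not pass. With SDS alone the papilla sum was higher at day 3 than at day 0, 981 to 1075 against 587 to 648, while Crabp1 was lower. Most papilla markers did not follow that sum: 3 of the 8 lay above day 0 and 5 below, with a median log2 difference of -1.14. The part of these markers in the Crabp1 result was not tested.

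Against SDS alone, Crabp1 was lower with Topsym at day 3 (log2 difference -1.57, SE 0.56, limma adjusted p = 0.0318) and at day 5 (-1.43, SE 0.56, adjusted p = 0.0469), from 4 to 52 reads per library. The day 3 call of Crabp1 was lost without the filter on low values (adjusted p = 0.0647) and when SDS_D3 replicate 1 (adjusted p = 0.126), SDS_D3 replicate 2 (0.0916) or SDS_D3+Topsym replicate 1 (0.216) was left out. The day 5 call was lost without the filter (0.0914), with only the libraries compared (0.125), with the replicate number as a block (0.0537), and without SDS_D5 replicate 1 (0.131), SDS_D5 replicate 2 (0.0904) or SDS_D5+Topsym replicate 2 (0.223).

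With Topsym, Crabp2 had 1903 and 1928 normalised reads at day 0, 3156 and 3175 at day 1, 9416 and 9402 at day 3, and 21427 and 20199 at day 5. With SDS alone, Crabp2 had 2048 and 1846 at day 0, 2366 and 2263 at day 1, 3404 and 3349 at day 3, and 13409 and 14526 at day 5. The order of the days was the same in both arms, neighbouring days did not overlap, and the arms overlapped at day 0 only. Crabp2 rose 4.91-fold at day 3 and 10.9-fold at day 5 against day 0 with Topsym (log2 differences 2.30 and 3.44, SE 0.05, limma adjusted p = 3.27e-15 and 7.8e-18). Topsym libraries were 2.79-fold higher than SDS alone at day 3 (log2 difference 1.48, limma adjusted p = 2.61e-12) and 1.49-fold higher at day 5 (0.58, adjusted p = 3.32e-07). The suprabasal markers were higher beside it at both days, at 331078 to 337199 with Topsym against 212014 to 224880 without it at day 3. At day 0 they summed to more than at day 3, 493523 to 516535 with Topsym and 504160 to 535473 without it, while Crabp2 was lower at day 0. With Topsym the single markers were mixed at day 3 against day 0: 4 rose, 2 fell and 3 did not pass the test (median log2 difference 0.10). With SDS alone, 1 lay above day 0 and 7 below (median -0.63). Basal markers also summed to more with Topsym at day 3, 603182 to 612956 against 240734 to 244954, with 6 higher and 1 lower. The part of these markers was not tested. Crabp2 (ENSMUSG00000004885) lies at 87948666 to 87953376 on the plus strand of chromosome 3, and Crabp1 (ENSMUSG00000032291) at 54764748 to 54773110 on the plus strand of chromosome 9.

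Of the oxidising enzymes, Aldh1a3 and Aox4 rose with Topsym at day 3 against day 0 by more than 3 on the log2 scale and Dhrs9 by 0.71. Aldh1a3 makes retinoic acid from retinaldehyde. With Topsym, Aldh1a3 had 338 and 310 normalised reads at day 0, 553 and 502 at day 1, 3797 and 3812 at day 3, and 1862 and 1631 at day 5. With SDS alone, Aldh1a3 had 380 and 349 at day 0, 562 and 541 at day 1, 1346 and 1362 at day 3, and 2786 and 2432 at day 5. The highest day was day 3 with Topsym and day 5 without it, and the arms overlapped at day 1 only. Aldh1a3 rose 11.7-fold at day 3 against day 0 with Topsym (log2 difference 3.55, SE 0.09, limma adjusted p = 4.2e-15). It was 2.81-fold higher with Topsym than without at day 3 (log2 difference 1.49, limma adjusted p = 5.08e-10) and 1.49-fold lower at day 5 (-0.58, adjusted p = 4.19e-05). Aldh1a3 (ENSMUSG00000015134) spans 66390890 to 66427517 on the minus strand of chromosome 7.

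Aox4 is a molybdenum-containing aldehyde oxidase that can oxidise retinaldehyde in mouse. With Topsym, Aox4 had 64.3 and 61 normalised reads at day 0, 60.5 and 58.8 at day 1, 521 and 593 at day 3, and 4746 and 5020 at day 5. With SDS alone, Aox4 had 225 and 208 at day 0, 25.3 and 17.6 at day 1, 319 and 296 at day 3, and 5228 and 5238 at day 5. From its lowest to its highest group, day 1 and day 5 of SDS alone, the mean of log2(normalised reads + 1) spanned 237-fold. Rbp4 spanned 119-fold on this scale, but its lowest group rests on 2 reads, so the order of these spans is not settled. In the Topsym arm Aox4 did not pass the test at day 1 (log2 difference -0.07, limma adjusted p = 0.748) and rose 77.9-fold by day 5 (6.26, SE 0.14, adjusted p = 6.33e-16). With SDS alone it stood 17-fold higher at day 5 than at day 3 (log2 difference 4.08, SE 0.14, limma adjusted p = 2.25e-13). Topsym libraries were 1.81-fold higher than SDS alone at day 3 (0.85, adjusted p = 0.000115), and at day 5 the difference did not pass the test (-0.10, adjusted p = 0.601). Aox4 (ENSMUSG00000038242) spans 58210397 to 58268597 on the plus strand of chromosome 1, beside its near copies Aox2 and Aox3, and 472 of its 8416 exon bases (5.61%) overlap Gm15759 on the other strand. Reads could be shared with these genes, since the sources used here do not say how the counting treated strand and repeats.

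Dhrs9, whose human form oxidises retinol to retinaldehyde, had the narrowest span among the enzymes on the same scale, 3.88-fold. With Topsym, Dhrs9 had 163 and 170 normalised reads at day 0, 321 and 330 at day 1, 273 and 271 at day 3, and 528 and 529 at day 5. With SDS alone, Dhrs9 had 195 and 205 at day 0, 260 and 324 at day 1, 381 and 455 at day 3, and 633 and 663 at day 5. Each later day lay above day 0 in both arms, and the arms overlapped at day 1. In the Topsym arm Dhrs9 rose by 0.97, 0.71 and 1.66 on the log2 scale at days 1, 3 and 5 (SE 0.12, limma adjusted p = 8.88e-06, 0.000122 and 3.44e-09). Topsym libraries were lower than SDS alone at day 3 (-0.61, limma adjusted p = 0.000689) and did not pass the test at day 5 (-0.29, adjusted p = 0.0641). Dhrs9 (ENSMUSG00000027068) lies on the plus strand of chromosome 2 from 69380445 to 69404533.

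Cyp26b1, an enzyme that breaks retinoic acid down, was lower with Topsym at every day. With Topsym, Cyp26b1 had 3376 and 3336 normalised reads at day 0, 6339 and 6357 at day 1, 5551 and 5323 at day 3, and 885 and 828 at day 5. With SDS alone, Cyp26b1 had 5918 and 5887 at day 0, 7384 and 7412 at day 1, 8679 and 8348 at day 3, and 1598 and 1573 at day 5. No Topsym library overlapped those of SDS alone at the same day. Cyp26b1 fell 6.35-fold at day 5 against day 3 with Topsym (log2 difference -2.67, SE 0.05, limma adjusted p = 8.78e-17) and 5.37-fold with SDS alone (-2.42, SE 0.05, adjusted p = 1.26e-16). Topsym against none gave -0.65 at day 3 (limma adjusted p = 5.6e-09) and -0.89 at day 5 (adjusted p = 2.56e-10). The 8 dermal fibroblast markers also summed to less with Topsym at days 3 and 5. At day 3 the sums were 30672 to 31022 against 98454 to 99574, with 8 markers lower. At day 5 they were 8868 to 8955 against 16772 to 16923, with 7 lower and 1 higher. Their sum was higher with Topsym at days 0 and 1, where the single markers were split. At day 0, 5 lay above SDS alone and 3 below, and at day 1, 4 above and 3 below. The part of these markers was not tested. Cyp26b1 (ENSMUSG00000063415) lies on the minus strand of chromosome 6 from 84571414 to 84593908.

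Rarg had the narrowest range of the 9 genes, 2.82-fold between its lowest and highest group on that scale. With Topsym, Rarg had 8023 and 8085 normalised reads at day 0, 6786 and 6631 at day 1, 5709 and 5441 at day 3, and 10770 and 9694 at day 5. With SDS alone, Rarg had 7934 and 8692 at day 0, 7108 and 6772 at day 1, 3629 and 3627 at day 3, and 5738 and 6012 at day 5. Day 3 was lowest in both arms, and the arms overlapped at days 0 and 1. With Topsym, Rarg fell by 0.53 at day 3 against day 0 (SE 0.06, limma adjusted p = 4.25e-07) and rose by 0.34 at day 5 (adjusted p = 3.69e-05). It was higher with Topsym than with SDS alone by 0.62 at day 3 (SE 0.06, limma adjusted p = 1.07e-07) and 0.80 at day 5 (adjusted p = 9.96e-09). Rarg (ENSMUSG00000001288) lies on the minus strand of chromosome 15 from 102234938 to 102257517.

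Per kilobase of annotated exon, the order of levels also differed between groups. At day 5 with Topsym, Crabp2 led with 15744 normalised reads per kilobase, then Rarg with 2401, Aox4 with 580, Aldh1a3 with 378, Cyp26b1 with 160, Dhrs9 with 123, Stra6 with 24.5, Crabp1 with 11.5 and Rbp4 with 3.6. At day 0 with Topsym, Rarg led with 1890 per kilobase, followed by Crabp2 with 1449 and Cyp26b1 with 627, and Aox4 was lowest with 7.44. Aox4 thus had the lowest level per length at day 0 and the third highest at day 5.

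In the Topsym arm against its own day 0, 4 genes rose and 3 fell at day 1, so 7 of 9 passed the test, where 40.8% of all genes tested did (20.3% rose and 20.5% fell). Those that rose were Crabp2, Aldh1a3, Cyp26b1 and Dhrs9, and those that fell were Crabp1, Stra6 and Rarg. Crabp1 and Stra6 had been chosen for their falls at this same step in SDS alone. The count at day 1 is therefore not a fair contrast with all genes. At day 3, 5 rose and 3 fell (55.2% of all genes passed, 27.0% up and 28.2% down), and at day 5, 5 rose and 4 fell (70.2% passed, 32.8% up and 37.5% down). The median log2 differences of the 9 genes were 0.13, 0.70 and 0.34 at days 1, 3 and 5, against -0.03, -0.04 and -0.08 for all genes tested. Over the last interval, day 5 against day 3, 4 rose and 3 fell (62.2% of all genes passed, 27.1% up and 35.1% down).

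**Figure D2:**
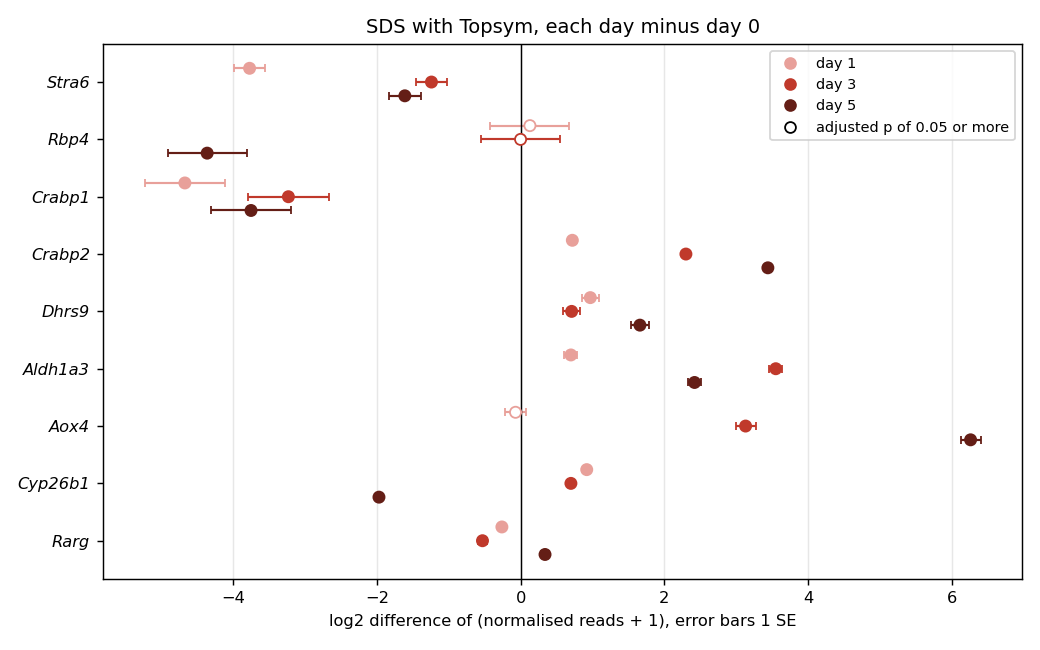
Log2 difference of days 1, 3 and 5 from day 0 within SDS with Topsym, with bars of 1 SE from the limma fit and open points where the adjusted p was 0.05 or more. Aox4 reached 6.26 at day 5, Crabp1 lay below -3 at all 3 days, and Cyp26b1 was above 0 at days 1 and 3 and at -1.97 at day 5.

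In SDS alone at day 5 against day 3, 6 genes rose and 2 fell, where 63.4% of all genes passed, 28.9% up and 34.5% down. The difference between arms in this interval was itself tested: 5 of 9 genes passed, all with a lower change in the Topsym arm, where 37.3% of all genes passed, 18.4% with a lower and 19.0% with a higher change. Aldh1a3 fell by 1.13 with Topsym (limma adjusted p = 7.55e-09) and rose by 0.94 with SDS alone (adjusted p = 5.77e-08), a difference of -2.07 (SE 0.12, adjusted p = 2.39e-09). Stra6 had a log2 difference of -0.37 with Topsym, which did not pass (adjusted p = 0.15), and rose by 2.03 with SDS alone (adjusted p = 3.76e-07), a difference of -2.40 (SE 0.30, adjusted p = 1.15e-05). Crabp2 and Aox4 rose in both arms, by less with Topsym, and Cyp26b1 fell by slightly more. Crabp1, Rbp4, Dhrs9 and Rarg did not pass this test.

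**Figure D3:**
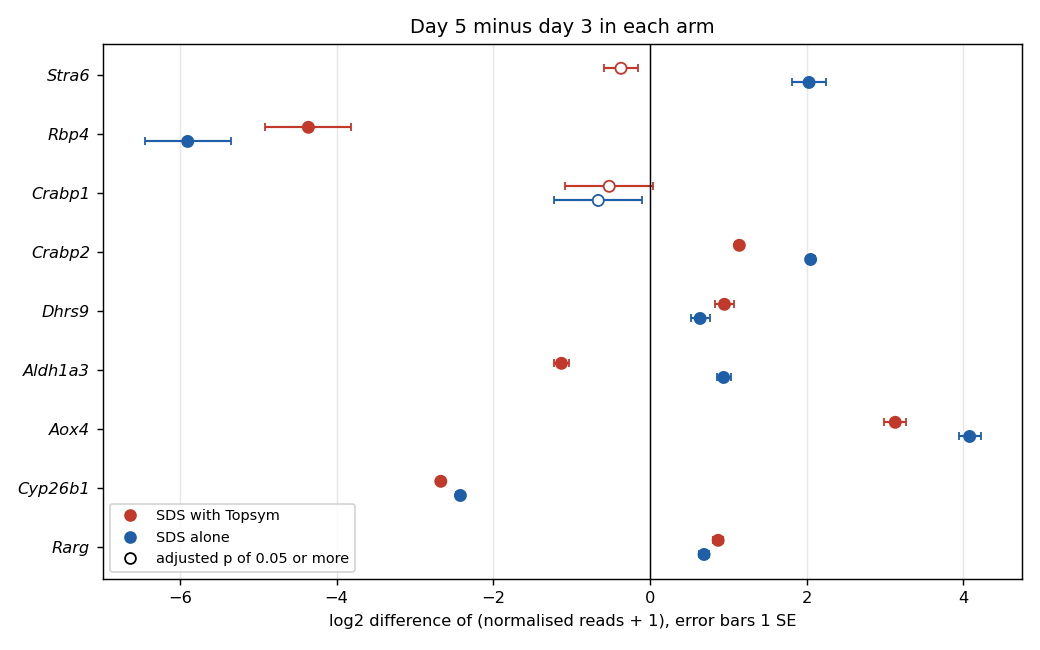
Log2 difference of day 5 from day 3 in SDS with Topsym (red) and SDS alone (blue), with bars of 1 SE and open points where the adjusted p was 0.05 or more. Aldh1a3 lies at -1.13 with Topsym and 0.94 with SDS alone, while Cyp26b1 lies at -2.67 and -2.42.

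Between arms at day 3, 5 of the 9 genes were higher with Topsym (Crabp2, Stra6, Aldh1a3, Rarg and Aox4) and 3 were lower (Crabp1, Cyp26b1 and Dhrs9), where 43.8% of all genes passed, 20.8% higher and 22.9% lower. At day 5, 2 were higher (Crabp2 and Rarg) and 4 were lower (Crabp1, Stra6, Aldh1a3 and Cyp26b1), where 46.8% of all genes passed, 22.6% higher and 24.2% lower. Crabp2 and Rarg were thus higher, and Crabp1 and Cyp26b1 lower, at both days, while Stra6 and Aldh1a3 were higher at day 3 and lower at day 5. Median log2 differences were 0.62 at day 3 and -0.29 at day 5, against -0.04 and -0.01 for all genes. The sum of 8 neutrophil markers was lower with Topsym at both days. It was 2566 to 2739 against 62738 to 63265 at day 3 and 36330 to 36379 against 261908 to 271448 at day 5. Of the 8 markers, 7 passed the test as lower with Topsym at day 3 and 8 at day 5. S100a8 and S100a9 in this list also mark stressed keratinocytes, so the sum need not follow neutrophils. With SDS alone at day 5 against day 3, 6 of the 8 fell and 2 rose, although the sum rose. The part of these markers in the results was not tested.

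**Figure D4:**
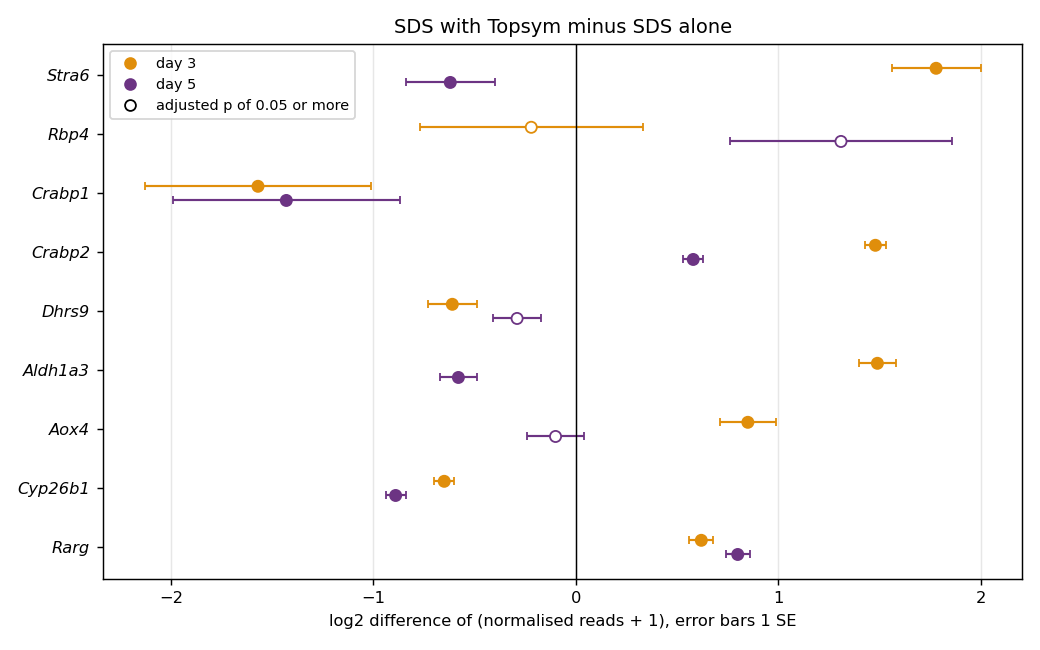
Log2 difference of SDS with Topsym from SDS alone at day 3 (orange) and day 5 (purple) for the 9 genes, with bars of 1 SE and open points where the adjusted p was 0.05 or more. Stra6 lies at 1.78 at day 3 and -0.62 at day 5, and Aldh1a3 at 1.49 and -0.58, while Rarg lies above 0 and Cyp26b1 below 0 at both days.

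At day 0 and day 1 the arms are described only. The Topsym libraries lay below those of SDS alone at day 0 for 7 of the 9 genes, where 60.9% of all genes had no overlap between arms, 29.9% above and 31.0% below, with Aox4 (-1.77), Rbp4 (-1.22), Crabp1 (-0.82) and Cyp26b1 (-0.81) farthest apart. At day 1, 2 genes lay above (Crabp2 and Aox4) and 3 below (Stra6, Rbp4 and Cyp26b1), where 54.3% of all genes had no overlap, 27.3% above and 27.0% below. Crabp2 (-0.02) and Rarg (-0.04) overlapped between the arms at day 0.

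Within SDS alone against day 0, also described only, 4 genes lay above and 5 below at day 1 (63.9% of all genes had no overlap, 29.0% above and 35.0% below), 5 above and 4 below at day 3 (76.3%, 37.9% above and 38.4% below), and 4 above and 5 below at day 5 (81.7%, 38.2% above and 43.4% below). Aox4 was at -3.30 at day 1 and 4.59 at day 5, and Crabp1 at -4.51 and -3.14. Stra6 went no higher than -1.22 at any later day, while Aldh1a3 stood at 0.60, 1.89 and 2.83 at days 1, 3 and 5.

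Annotated promoters are shown for the enzymes Aox4 and Dhrs9, which rose at day 5 in both arms, and for Crabp1 and Stra6, which fell at day 1 with Topsym. The sequences are RefSeq promoters of GRCm38.p6, 250 bases up to the base before an annotated start, on the plus strand at chr1:58210147-58210396 for Aox4, chr2:69380212-69380461 for Dhrs9, chr9:54764498-54764747 for Crabp1 and chr9:58128838-58129087 for the first of 4 Stra6 starts. They were found for 7 of the 9 genes, without Crabp2 and Aldh1a3. Capitals mark exact matches, on either strand, to the letters searched.
Aox4: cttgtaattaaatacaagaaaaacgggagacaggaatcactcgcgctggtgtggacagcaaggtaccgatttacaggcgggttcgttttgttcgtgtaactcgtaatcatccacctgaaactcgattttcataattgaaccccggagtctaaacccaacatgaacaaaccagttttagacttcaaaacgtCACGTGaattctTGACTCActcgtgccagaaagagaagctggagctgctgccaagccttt
Dhrs9: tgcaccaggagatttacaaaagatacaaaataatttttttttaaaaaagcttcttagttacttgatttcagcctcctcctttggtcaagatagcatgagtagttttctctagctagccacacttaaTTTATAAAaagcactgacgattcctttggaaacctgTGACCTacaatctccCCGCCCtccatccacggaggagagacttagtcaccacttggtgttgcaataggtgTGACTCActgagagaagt
Crabp1: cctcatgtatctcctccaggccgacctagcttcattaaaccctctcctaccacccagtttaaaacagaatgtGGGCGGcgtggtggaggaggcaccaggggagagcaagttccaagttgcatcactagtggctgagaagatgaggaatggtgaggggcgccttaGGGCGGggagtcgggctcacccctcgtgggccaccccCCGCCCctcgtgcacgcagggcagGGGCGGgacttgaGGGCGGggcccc
Stra6: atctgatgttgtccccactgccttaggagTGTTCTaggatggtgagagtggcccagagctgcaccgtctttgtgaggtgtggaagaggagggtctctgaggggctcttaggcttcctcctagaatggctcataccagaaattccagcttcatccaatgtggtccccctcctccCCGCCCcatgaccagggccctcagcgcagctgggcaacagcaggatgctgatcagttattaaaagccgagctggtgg

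The letters searched were TATAAA for a TATA box, AGGTCA for a retinoid receptor half-site, AGTTCA for a variant of it, TGACTCA for an AP-1 site, AGAACA for a glucocorticoid receptor half-site, CACGTG for an E-box and GGGCGG for a GC box. Aox4 held an AP-1 match at -48 to -42 and an E-box match at -60 to -55, where -1 is the last base before the start, and Dhrs9 an AP-1 match at -18 to -12. Of all 32851 promoter windows of this length, 4.46% held the AP-1 letters and 6.02% the E-box letters. Among promoters not shown, the second of Rbp4, which fell at day 5 in both arms, also held an AP-1 match, at -142 to -136. The first of Rarg held a retinoid half-site match at -225 to -220. Dhrs9 also held the retinoid half-site letters on the other strand at -88 to -83 (14% of windows) and overlapping TATA matches on both strands between -124 and -117 (12.4%). Crabp1 held 5 GC box matches (32.7% of windows held at least 1), and the Stra6 window a glucocorticoid half-site match on the other strand at -221 to -216 (16.1%) and a GC box match at -77 to -72. These matches describe the letters alone.

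Other genes of retinoid metabolism (38 in a chosen list, 35 of them tested, without Adh4, Cyp26a1 and Cyp26c1, which were too low) moved in both directions in every comparison. With Topsym against SDS alone, 8 were higher and 10 lower at day 3, and 12 higher and 10 lower at day 5, with medians of -0.09 and -0.02. Of all genes tested, 20.8% were higher and 22.9% lower at day 3, and 22.6% and 24.2% at day 5. The largest differences at day 3 were in Rbp7, a cellular retinol-binding protein (-1.78, SE 0.43, limma adjusted p = 0.00294), the receptor Rara (-1.30, SE 0.08, adjusted p = 1.5e-09) and Sdr16c6, a dehydrogenase (1.28, SE 0.10, adjusted p = 1.33e-08). Rara had 582 and 635 normalised reads with Topsym against 1468 and 1541 with SDS alone, so this receptor was lower at the day when Rarg was higher. At day 5 the largest were again in Rbp7, now higher (2.44, SE 0.43, limma adjusted p = 0.000212), the retinol dehydrogenase Rdh16 (-2.23, SE 0.45, adjusted p = 0.000637) and Awat2, an acyltransferase of sebaceous glands (1.92, SE 0.23, adjusted p = 3.56e-06). Sebaceous markers, a list that holds Awat2, summed to 52861 to 53189 with Topsym against 25365 to 27097 without it at day 5, and their part was not tested.

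Within SDS alone at day 5 against day 3, 16 of the 35 genes of this list rose and 13 fell, with a median of 0.17, where 28.9% of all genes rose and 34.5% fell. Rbp2, another cellular retinol-binding protein, had 7340 and 7551 normalised reads at day 5 against 772 and 711 at day 3 (log2 difference 3.33, SE 0.10, limma adjusted p = 2.35e-14). Aldh1a1, which like Aldh1a3 makes retinoic acid, had 460 and 463 at day 5 against 3268 and 3480 at day 3 (-2.87, SE 0.06, adjusted p = 8.94e-16), so these related enzymes changed in opposite directions. Rbp7 fell as well (-3.37, SE 0.43, adjusted p = 3.5e-06). In the Topsym arm 15 rose and 7 fell at day 1 against day 0, 15 and 13 at day 3, 16 and 12 at day 5, and 12 rose and 9 fell at day 5 against day 3. Of all genes, 20.3% rose and 20.5% fell at day 1, 27.0% and 28.2% at day 3, 32.8% and 37.5% at day 5, and 27.1% and 35.1% at day 5 against day 3.

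**Figure D5:**
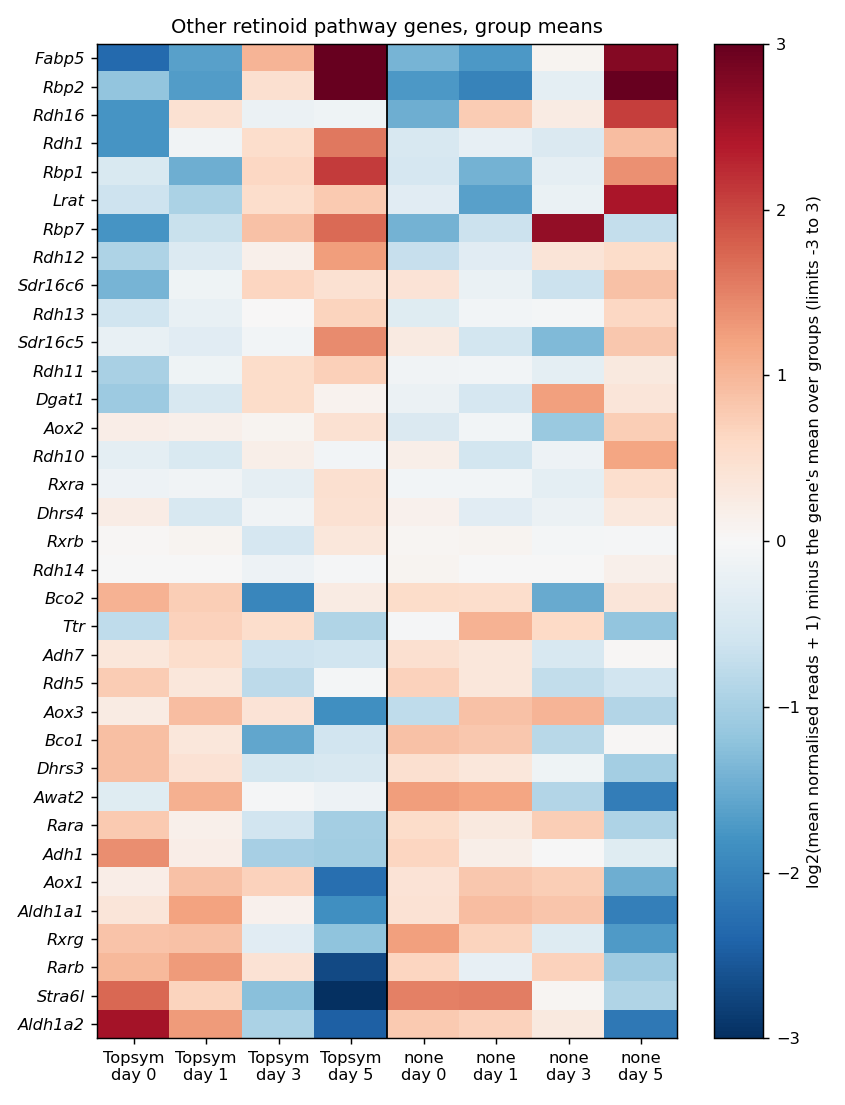
Log2(mean normalised reads + 1) of each group minus the gene's mean over the 8 groups, as colour with limits at -3 and 3, for the 35 other retinoid genes tested (rows) in groups (columns, Topsym left). Rbp2 is highest at day 5 in both arms, Aldh1a1 is lowest at day 5 in both, and Rbp7 is highest at day 3 of SDS alone.

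Genes known to respond to retinoic acid (12 in a chosen list, 11 tested, some of them also in the list above) gave 4 higher and 3 lower with Topsym than with SDS alone at day 3 and 3 higher and 4 lower at day 5, with medians of -0.03 and -0.02, where 43.8% and 46.8% of all genes passed. At day 5 against day 3, 7 fell and 4 did not pass the test with Topsym (median -1.43, against -0.13 for all genes, of which 35.1% fell), and 4 rose and 6 fell with SDS alone (median -0.88, against -0.07 for all genes, of which 28.9% rose and 34.5% fell). Tgm2, a transglutaminase, chosen here after its values were seen, had 417 and 369 normalised reads at day 5 against 1808 and 1743 at day 3 with Topsym (-2.17, SE 0.06, limma adjusted p = 5.52e-14), and 347 and 354 against 6874 and 6639 with SDS alone (-4.26, SE 0.06, adjusted p = 1.45e-17).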

How the data were processed

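RNA of mouse whole skin was measured in 16 libraries, 2 in each of 8 groups taken from the titles (SDS with or without Topsym, each at days 0, 1, 3 and 5). The labels speak of 4 days of topical treatment although titles reach day 5, and they name a strand-specific library kit. The authors deposited a normalised signal, read counts scaled by a factor per library. Per the submitters' processing notes, the tools were Trim Galore 0.6.7 for trimming, HISAT2 2.2.1 for alignment to mm10, featureCounts 2.0.3 for counting, and DESeq2 2.11.40.8. Dividing each library by its step (the value of 1 read) gave whole numbers for 100% of values, to within 1e-04, and these were taken as reads. Of counts between 1 and 20, 69.9 to 76.8% were even, so mates of a fragment may have been counted apart and counting intervals, which cover counting error only, are too narrow.

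A gene was kept if 2 or more libraries reached 10 normalised reads (19189 genes). Differences of log2(value + 1) were fitted over all 8 groups in R 4.3.3 by limma 3.58.1, using a variance trend and leaving 8 residual degrees of freedom, and p-values were adjusted over all genes kept. The 9 genes, the lists and the rules were chosen with earlier results of these data known. From the list of other retinoid genes, the 3 largest called differences were named in each of 3 comparisons, among genes with a group mean of at least 100. The genes nearest in pattern were the 3 with the highest Pearson correlation. Replicates differed by more than sampling noise (chi-square per degree of freedom 3.02 to 6.51). Alternatives were edgeR 4.0.16 and DESeq2 1.42.0 on recovered reads, each library left out, an added minimum log2 difference of 1, TMM factors, no filter, a pseudocount of 4, a block for the replicate number, a robust prior, and fits of only the libraries compared. Under edgeR 7137 to 13235 genes were called per comparison, and under DESeq2 7082 to 13031. The series' design text names sorted cells, which no sample label does, and the labels were followed.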

Additional observations from a re-analysis of the deposited data

Results flagged for a closer look

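A test of the difference between arms singled out 5 genes, whose change at day 5 against day 3 was lower in SDS with Topsym than in SDS alone. The difference of log2 changes (limma, Benjamini-Hochberg over 19189 genes) was -2.40 for Stra6 (SE 0.30, adjusted p = 1.15e-05), -2.07 for Aldh1a3 (SE 0.12, adjusted p = 2.39e-09), -0.95 for Aox4 (SE 0.20, adjusted p = 0.00133), -0.90 for Crabp2 (SE 0.08, adjusted p = 1.63e-07) and -0.24 for Cyp26b1 (SE 0.06, adjusted p = 0.00729). Aldh1a3 is the only 1 of the 9 genes that passed the test in opposite directions in the arms, with log2 changes of -1.13 with Topsym and 0.94 with SDS alone.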

How the results depend on the processing

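Over 72 single-gene tests, 8 comparisons of the 9 members, no difference that passed the test reversed its direction under any alternative. Changes of sign between fits that both did not pass were not counted. The calls were all kept under edgeR, DESeq2, TMM factors, a pseudocount of 4 and a robust prior. Of the 45 log2 differences of members described without a test, 3 moved under a pseudocount of 4 and 3 under TMM factors. Moved here means a shift of at least the spread between libraries of a group. Requiring a log2 difference of at least 1 as well reduced the number of members called to 2 of 7 at day 1 and 5 of 8 at day 3 against day 0 with Topsym, 5 of 8 at day 5 against day 3 with SDS alone, 4 of 8 for Topsym against none at day 3, 1 of 6 at day 5, and 2 of 5 for the difference between arms in that interval. For the other pathway genes it left 9 of 22 at day 1 with Topsym, 5 of 18 and 6 of 22 for Topsym against none at days 3 and 5, and 7 of 19 for the difference between arms. For all genes it left 2240 of 7830, 4496 of 10587 and 7919 of 13477 at days 1, 3 and 5 against day 0 with Topsym, 5987 of 11943 and 6559 of 12174 at day 5 against day 3 with Topsym and with SDS alone, 2584 of 8401 and 2753 of 8976 for Topsym against none at days 3 and 5, and 2588 of 7166 for the difference between arms. Fitting only the libraries compared gave 4028 of 8976 genes for Topsym against none at day 5.

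With 1 library left out, members called numbered 7 to 8 for Topsym against none at day 3, 4 to 6 at day 5 and 5 to 7 for the difference between arms. Calls lost were those of Crabp1 and Stra6 given with their results. Gained were Rbp4 for Topsym against none at day 5, given with its result, and, in the difference between arms, Rbp4 without SDS_D5 replicate 2 (2.50, adjusted p = 0.0072) or SDS_D5+Topsym replicate 2 (2.44, adjusted p = 0.00899) and Rarg without SDS_D5+Topsym replicate 2 (0.26, adjusted p = 0.0163). The replicate number is only a number: over 28 pairs of groups, deviations of same-numbered libraries correlated between -0.03 and 0.03. With the replicate block, 5 members in place of 6 were called for Topsym against none at day 5, Crabp1 being lost (adjusted p = 0.0537). Precision is limited by 2 libraries a group and, for Crabp1 and Rbp4, by libraries with few reads.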

Other observations

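Genes with a pattern like that of each of the 9 were ranked by Pearson's r over the 8 group means of log2(normalised reads + 1), among 6023 genes, as a description with no test. Days are shared between the arms, and broad shifts in tissue make-up enter each r. Crabp2 was nearest to Pgk1, a glycolytic enzyme (r = 0.993, n = 8 groups), Aldh1a3 to Dkc1, Pno1 and Eif2s2, genes of ribosome assembly and translation (0.982 to 0.990), and Rbp4 to Pappa, Creb3l2 and Map1b (0.994 to 0.997). Cyp26b1 was nearest to Kalrn (0.993), Dhrs9 to Porcn (0.984) and Il1a (0.963), Aox4 to Ptrhd1 (0.984), Gsta1 (0.977) and Aldh3b2 (0.972), and Rarg to Igfbp2 (0.977). Stra6 was nearest to Ripply3 (0.944), and Crabp1 to Lif (0.901), the least close of the 9. Among the 9 genes themselves, r was highest for Crabp2 with Aox4 and Rbp4 with Cyp26b1 (0.89 each), and lowest for Rbp4 with Crabp2 and with Aox4 (-0.85 each).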
